A study of Mus musculus with 9 samples.

Results

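The mRNA levels of 9 hepatocyte identity transcription factors were followed in mouse liver: the nuclear receptor Hnf4a, the forkhead factors Foxa1, Foxa2 and Foxa3, the leucine zipper factors Cebpa and Cebpb, and the nuclear receptors Nr5a2, Nr1i2 and Nr1i3. These genes were chosen by name, as regulators that define the hepatocyte, with earlier results of these data known. They are 9 of the 17846 genes listed for each liver. All 9 were among the 13619 genes with enough reads to be tested. All groups were male mice of the strain C57/BL, labelled WT, a strain that the study's methods give as C57BL/6. Control mice ate normal chow, NASH mice ate the Ath diet, which is rich in cholesterol and contains cholate, for 20 weeks without training, and NASH+Exercise mice ate the same diet for 12 weeks and then for 8 weeks of treadmill training that began at 20 weeks of age. Livers were taken after an overnight fast, and 3 mice per group were sequenced, with 1 library per mouse.

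Hepatocytes keep their identity through a network of transcription factors that bind each other's promoters as well as the enhancers of liver genes. FOXA proteins open chromatin for the others, HNF4A and the C/EBP proteins drive genes for secreted proteins, lipoproteins and glucose and urea metabolism, NR5A2 (LRH-1) drives bile acid and cholesterol genes, and NR1I2 (PXR) and NR1I3 (CAR) pair with RXR to switch on cytochromes P450 and transporters in response to drugs, bile acids and other compounds. In injured or inflamed liver the output of this network is known to shift away from metabolism towards acute phase proteins, in which C/EBP beta takes part.

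The libraries held between 20085976 and 22495408 estimated reads. Levels are given as CPM, which are reads scaled by library, and summed over the 14 hepatocyte markers they ran from 150000 to 178000 in the Control mice, from 104000 to 136000 in the NASH mice and from 124000 to 147000 in the trained mice. Of these markers 7 fell and 1 rose in NASH against Control. Over all genes tested 14.4% fell and 21.2% rose there, and 15.6% rose in NASH+Exercise against Control. The 13 macrophage markers summed to 104 to 179 CPM in Control mice, to 854 to 923 CPM in NASH mice and to 632 to 776 CPM in trained mice, with 12 that rose in NASH and 11 in NASH+Exercise against Control and none at 0 in every mouse. Among the other lists, markers that rose in NASH numbered 9 of 9 for T and NK cells, 7 of 9 for neutrophils, 6 of 9 for cholangiocytes, 7 of 12 for stellate cells, 5 of 9 for endothelial cells and 0 of 5 for both B cells and erythroid cells, and in none of these lists did a marker fall. In whole liver, fewer hepatocytes and less RNA of a gene per hepatocyte cannot be told apart, and the part of the added macrophage RNA in the values given here was not tested. Changes are given as log2 fold changes of CPM after TMM scaling with standard errors (SE), and a gene is said to rise or fall when its adjusted p in edgeR is under 0.05 and is called a DEG when its absolute log2 fold change is also above 1. TMM factors ran from 0.80 to 0.976 in Control, from 1.09 to 1.23 in NASH and from 0.912 to 1.08 in NASH+Exercise, so the scaling itself differed between the groups.

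Compared per length, in TPM, which correct for transcript length, the factors spanned a 25.3-fold range in Control liver. Hnf4a (306 TPM ± 32.4, SD, n = 3) and Cebpa (285 TPM ± 46.7) were the most abundant, and their ranges over the 3 mice overlapped. Nr1i3 (193 TPM ± 13.3), Cebpb (129 TPM ± 15) and Nr1i2 (77.9 TPM ± 13.1) followed, each without overlap with the next. Foxa3 (27.1 TPM ± 3.08), Foxa2 (24.5 TPM ± 4.18), Nr5a2 (18.3 TPM ± 8.06) and Foxa1 (12.1 TPM ± 1.72) formed the lowest set, in which neighbouring genes overlapped. Even Foxa1 was above 70.4% of the genes detected in Control liver, and Hnf4a was above 97.6%.

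The order of the levels moved at 2 places. Nr1i3 was above Cebpb in every Control mouse, but in NASH the means were 129 TPM for Nr1i3 and 130 TPM for Cebpb, with overlapping ranges. In NASH+Exercise the means were 97.1 and 144 TPM, and the ranges overlapped again (80.8 to 128 and 96.2 to 216 TPM). Nr1i2 lay well above Foxa3 in Control and NASH, whereas in NASH+Exercise Foxa3 had a mean of 46.2 TPM ± 6.45 and Nr1i2 a mean of 41.6 TPM ± 6.22, and their ranges overlapped. Hnf4a stayed first in each group, at 306, 299 and 287 TPM in Control, NASH and NASH+Exercise, and Foxa1 stayed last.

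**Figure D1:**
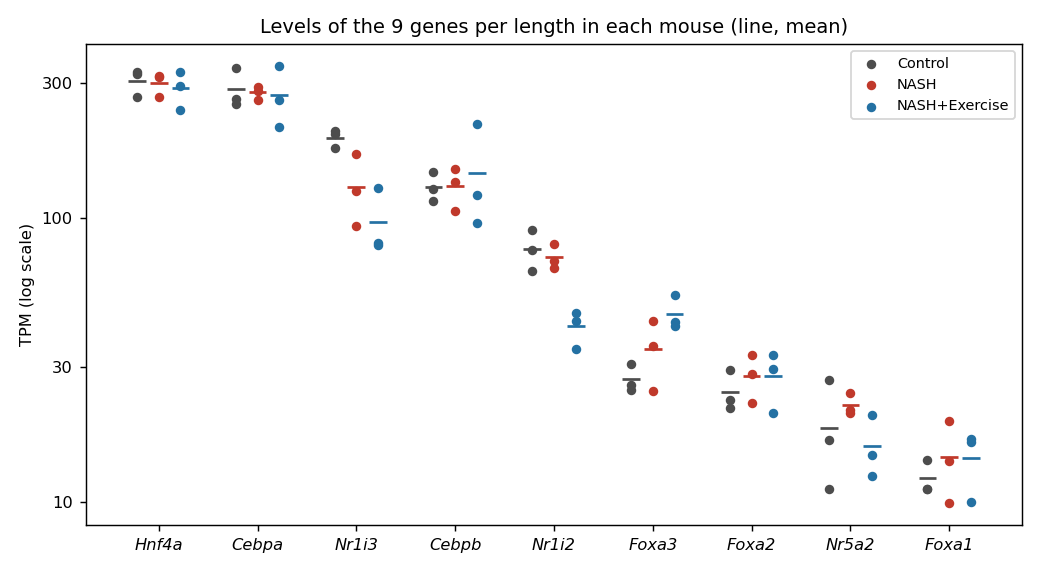
Level of each transcription factor in each mouse, in TPM on a log axis, with genes ordered by their Control mean, points for mice (n = 3 per group), lines for group means and colours for groups. Hnf4a and Cebpa lie between 209 and 345 TPM in all mice, Nr1i3 drops from 193 to 97.1 TPM between Control and NASH+Exercise, and the mean of Foxa3 lies above that of Nr1i2 in NASH+Exercise only, with overlapping mice.

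The first comparison asks what the Ath diet did to the network. In NASH against Control, 3 of the 9 factors fell (Nr1i3, Nr1i2 and Cebpa), none rose, and 1, Nr1i3, was a DEG. Over all genes tested 21.2% rose, 14.4% fell and 3.03% were DEGs with a lower level. In 5 of the 9 genes (Hnf4a, Cebpa, Cebpb, Nr1i2 and Nr1i3) every NASH mouse was below every Control mouse, which was so for 22.2% of all genes, while no factor had every NASH mouse higher, which was so for 27.4%. At an unadjusted p under 0.05 there were 4 factors, against 45.3% of all genes. The median log2 fold change of the 9 factors was -0.40, and that of all genes tested 0.01. Under TMM all 9 estimates were negative, but only 5 were so when libraries were scaled by their total alone, which moved the median of all genes to 0.36. Measured from that median, all 9 were lower under TMM, RLE and library size alone, and 8 of 9 in TPM, where Nr5a2 stood at the median.

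**Figure D2:**
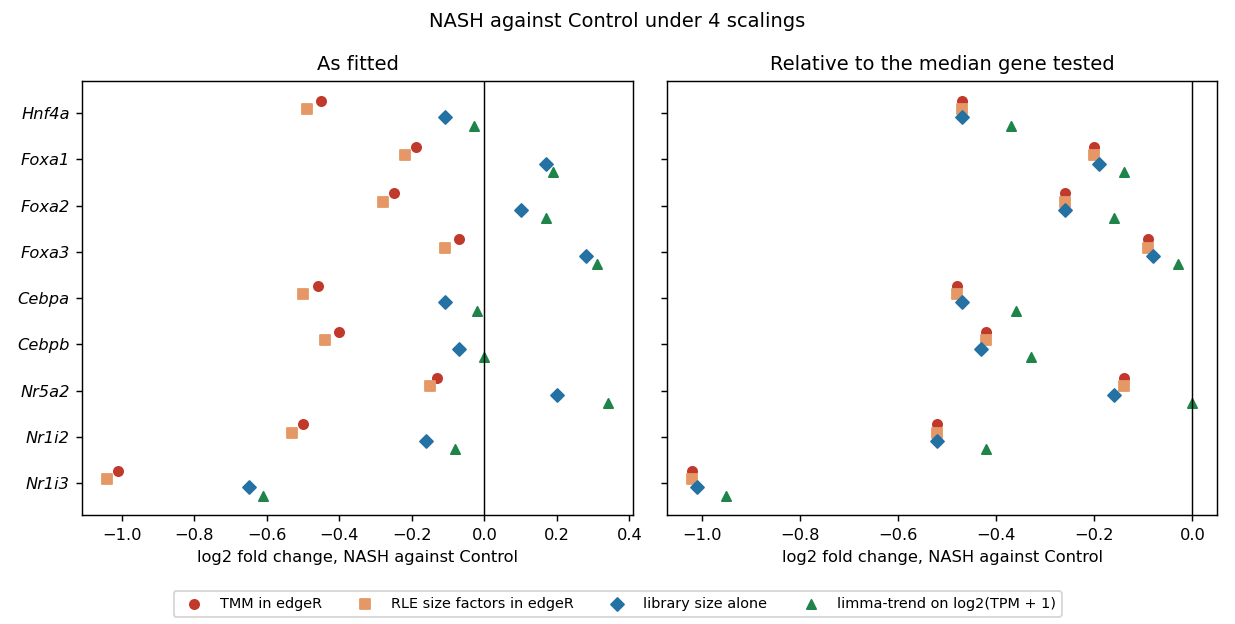
Log2 fold change of each factor in NASH against Control under 4 scalings, as fitted (left) and after subtracting the median of all genes tested (right). Foxa1, Foxa2, Foxa3 and Nr5a2 change sign on the left between TMM or RLE and library size or TPM, and on the right the 4 scalings lie close together, with Nr1i3 between -1.02 and -0.95.

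The xenobiotic receptors showed the clearest differences. Nr1i3 (CAR, Entrez 12355, chromosome 1, 171213934-171218845, plus strand, GRCm38.p6) is the receptor through which phenobarbital-like compounds induce Cyp2b genes. Its level was 187, 198 and 165 CPM in the 3 Control mice, 66.6, 81.2 and 126 CPM in the NASH mice and 99.2, 73.0 and 79.5 CPM in the NASH+Exercise mice. Each mouse on the Ath diet, trained or not, was below each Control mouse. The mean fell by 50.2% in NASH (log2 fold change -1.01, SE 0.22, adjusted p = 0.00506 in edgeR) and by 54.2% in NASH+Exercise against Control (-1.13, SE 0.22, adjusted p = 0.00383 in edgeR), and Nr1i3 was a DEG in both. With libraries scaled by their total alone the fall in NASH was -0.65, and in TPM it was -0.61 with an adjusted p of 0.0512 in limma. With single mice left out the fall in NASH ran from -1.31 to -0.83 (adjusted p at most 0.0182 in edgeR). The call held there, but the DEG label did not hold throughout.

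Nr1i3 shares its locus with Tomm40l, a mitochondrial import gene on the opposite strand. In the GENCODE annotation 3304 of the 4414 exon bases of Nr1i3 (74.9%) are also exon bases of Tomm40l, and in RefSeq the gene spans share 1044 bases. Tomm40l was 169, 145 and 141 CPM in Control, 51.7, 54.2 and 106 CPM in NASH and 76.9, 50.7 and 56.8 CPM in NASH+Exercise. It fell in NASH (-1.10, adjusted p = 0.0103 in edgeR) and in NASH+Exercise against Control (-1.30, adjusted p = 0.0062 in edgeR). The sources used here do not state that reads were counted by strand, so reads from the shared bases of Nr1i3 and Tomm40l cannot be told apart.

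Nr1i2 (PXR, Entrez 18171, chromosome 16, 38248349-38294849, minus strand), the receptor for many drugs and for lithocholic acid, was 124, 124 and 131 CPM in Control, 83.0, 79.6 and 105 CPM in NASH and 58.0, 52.7 and 77.3 CPM in NASH+Exercise. In CPM the 3 groups did not overlap, with Control highest and the trained mice lowest, while in TPM Control and NASH overlapped. It fell by 29.4% in NASH (-0.50, SE 0.16, adjusted p = 0.0318 in edgeR) and by 50.4% in NASH+Exercise against Control (-1.01, SE 0.16, adjusted p = 0.0012 in edgeR), where it was a DEG. The call in NASH against Control did not hold when libraries were scaled by their total alone (-0.16, adjusted p = 0.413 in edgeR) or in TPM (-0.08), nor without Control replicate 3 or 29 or NASH replicate 5 or 19 (-0.52 to -0.46, adjusted p between 0.0518 and 0.0995 in edgeR), whereas that in NASH+Exercise against Control held under all 17 alternatives, between -1.19 and -0.88. Between the trained and the sedentary mice the difference was -0.51 (SE 0.16, adjusted p = 0.198 in edgeR), which did not pass.

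The sequence just before the RefSeq start of both receptor genes is shown because they are the factors that fell in both comparisons with Control. Each sequence shown here comes from RefSeq promoter windows on GRCm38.p6, is written 5′ to 3′ on the strand of its gene and is trimmed to bases that lie in no exon of that gene.
Nr1i3, GRCm38.p6 chr1:171213720-171213933, plus strand: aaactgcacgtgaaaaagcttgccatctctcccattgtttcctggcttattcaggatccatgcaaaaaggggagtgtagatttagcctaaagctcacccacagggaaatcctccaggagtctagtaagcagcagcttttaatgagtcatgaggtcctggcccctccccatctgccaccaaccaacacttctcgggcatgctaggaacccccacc
Nr1i2, GRCm38.p6 chr16:38294850-38295074, minus strand: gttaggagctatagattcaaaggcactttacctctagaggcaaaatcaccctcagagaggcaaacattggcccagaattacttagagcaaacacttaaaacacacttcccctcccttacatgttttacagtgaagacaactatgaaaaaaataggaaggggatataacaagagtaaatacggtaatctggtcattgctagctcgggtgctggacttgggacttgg
Neither stretch holds an exact match, on either strand, to the 5 motifs given here, which were CAAAGTCCA for HNF4, TGTTTAC for forkhead factors, AGGTCA for nuclear receptors, CAAGGTCA for NR5A2, which contains AGGTCA, and TTGCGCAA for C/EBP. So both are all in lower case. Of the 32851 RefSeq promoter windows, which run from 250 bases before to 50 after each start, these motifs are found in 0.475%, 3.65%, 16.3%, 1.56% and 0.183% in that order, and AGGTCA was found in only 1 of the 13 windows of the 9 factors, that of Nr5a2.

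The CAR and PXR target list, with 21 of 23 genes tested, had 9 that fell and 3 that rose in NASH against Control, with a median of -0.78. Over all genes tested 14.4% fell and 21.2% rose, and the same shares stand beside the other gene lists. In NASH+Exercise against Control 8 fell and 3 rose, with a median of -0.38, while 9.58% of all genes fell and 15.6% rose. In NASH+Exercise against NASH none of the 21 passed, with a median of 0.11. With library size alone 7 fell and 4 rose in NASH. Under that scaling 633 of all genes tested fell and 4489 rose in NASH. Those totals, not the shares above, stand beside every list count in NASH under library size alone. Cyp2b10, the classical CAR target, was 12.7, 10.3 and 2.35 CPM in Control, at most 0.416 CPM in NASH and at most 0.292 CPM in NASH+Exercise, or 1 to 10 reads per mouse on the diet. It fell in both (-5.53 and -5.35, adjusted p = 0.000747 and 0.0013 in edgeR), with a fold that so few reads leave uncertain, and near-identical Cyp2b genes can share its reads. Cyp3a11, the classical PXR target and the main drug-metabolising P450 of mouse liver, ranged over 3910 to 7550 CPM in the Control mice, 2960 to 3170 CPM in the NASH mice and 1510 to 2510 CPM in the trained mice. The 3 groups did not overlap, in the same order as for Nr1i2, and the gene fell in NASH (-0.78, adjusted p = 0.0398 in edgeR) and in NASH+Exercise against Control (-1.38, adjusted p = 0.0035 in edgeR), the former without a call under library size alone (-0.44, adjusted p = 0.252 in edgeR), without Control replicate 3 (-0.44, adjusted p = 0.169 in edgeR) or without any 1 of the NASH mice (-0.82 to -0.76, adjusted p between 0.0798 and 0.105 in edgeR).

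Gsta1, a glutathione transferase on the same list, rose from 3.38 CPM ± 1.63 in Control to 22 CPM ± 7.66 in NASH (2.70, adjusted p = 0.000195 in edgeR) and was 9.75 CPM ± 0.689 in NASH+Exercise. Cyp2c29, a P450 that CAR induces, fell in NASH (-0.93, adjusted p = 0.00454 in edgeR) and stood at 725 CPM ± 109 in the trained mice against 809 CPM ± 140 in Control, a difference that did not pass (-0.16). Neither Gsta1 (-1.17, adjusted p = 0.145 in edgeR) nor Cyp2c29 (0.77, adjusted p = 0.137 in edgeR) passed in NASH+Exercise against NASH. Of 10 partners and cofactors of CAR and PXR, 1 fell in NASH, Rxrb (-0.48, adjusted p = 0.0361 in edgeR). That call was lost under library size alone (-0.12) and without Control replicate 3 or 4, NASH replicate 19 or 20 or NASH+Exercise replicate 18 (-0.52 to -0.32), and the main hepatic partner Rxra did not pass (-0.25).

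**Figure D3:**
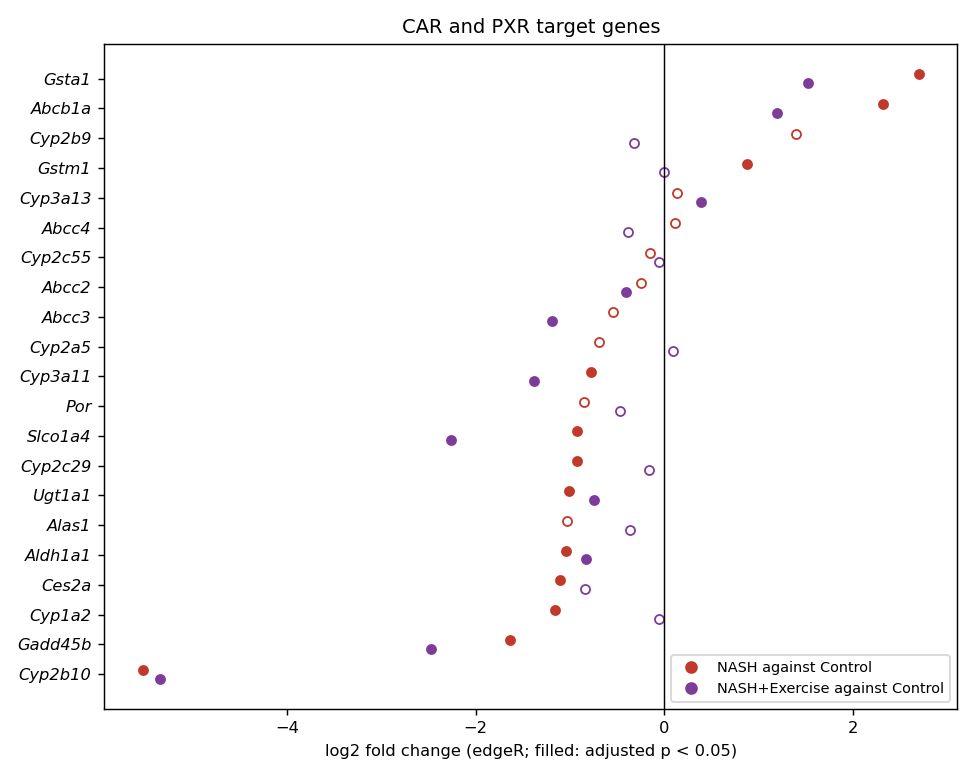
Log2 fold changes (horizontal axis) of the 21 tested CAR and PXR target genes (vertical axis, ordered by NASH against Control), in NASH against Control and in NASH+Exercise against Control, which share the Control mice, with filled points for an adjusted p under 0.05 in edgeR. Cyp2b10 lies beyond -5 in both, and Gsta1 and Abcb1a lie above 1 in both.

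Hnf4a (Entrez 15378, chromosome 2, 163506811-163572907, plus strand) encodes the nuclear receptor that holds the network together. It was 943, 922 and 850 CPM in Control, 707, 542 and 732 CPM in NASH and 581, 897 and 877 CPM in NASH+Exercise. All NASH mice were below all Control mice, and among the trained mice replicate 8 was in the NASH range while the other two were in the Control range. The difference of NASH from Control was -0.45 (SE 0.19, adjusted p = 0.0885 in edgeR) and did not pass, although DESeq2 called it (adjusted p = 0.0197 on 2 groups and 0.0425 on all 9 mice), as did edgeR without NASH+Exercise replicate 8 (adjusted p = 0.0478). In TPM the group means were nearly level, and the difference was -0.03. Training against NASH gave 0.25 (SE 0.19, adjusted p = 0.566 in edgeR), with an interval of 2 SE from -0.13 to 0.63, and -0.07 in TPM. Hnf4a has an upstream start, used in fetal liver and gut, and a downstream start, used in adult hepatocytes, and the counts per gene do not separate the transcripts.

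Of 24 HNF4A target genes, 11 fell and 1 rose in NASH, with a median of -0.57. The largest fall was that of Mttp, which loads lipid onto apolipoprotein B (434 CPM ± 56.9 in Control, 192 CPM ± 28.7 in NASH, -1.18, adjusted p = 0.000367 in edgeR). Apoc3 (-0.59, adjusted p = 0.0483 in edgeR) and Ttr (-0.70, adjusted p = 0.0387 in edgeR) also fell, though neither kept its call under library size alone, where 5 of the targets fell and 2 rose, or without any 1 of 6 mice (Control replicates 3 and 4, NASH+Exercise replicate 18 and the 3 NASH mice), and Apoc3 also lost it without NASH+Exercise replicate 8. F11, coagulation factor XI, rose (0.88, adjusted p = 0.006 in edgeR), and Apob did not pass (-0.23). In NASH+Exercise against Control 4 fell and 1 rose. Against NASH none passed, and the median was 0.30. The fall of 7 of the 14 hepatocyte markers, some of them on this list too, moved with these genes, and its part in the result was not tested.

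Cebpa (Entrez 12606, chromosome 7, 35119293-35121928, plus strand), which drives genes of gluconeogenesis and the urea cycle, was 449, 545 and 532 CPM in Control, 357, 358 and 393 CPM in NASH and 501, 435 and 381 CPM in NASH+Exercise. It fell by 27.4% in NASH (-0.46, SE 0.15, adjusted p = 0.0299 in edgeR), with no overlap between the groups, while the trained mice overlapped both. The call rests on the scaling, since the difference was -0.11 under library size alone (adjusted p = 0.608 in edgeR) and -0.02 in TPM. Leaving out any of 5 mice, Control replicate 4 or 29 or NASH replicate 5, 19 or 20, also ended the call, with adjusted p between 0.0519 and 0.0905 in edgeR. Training against NASH gave 0.25 (SE 0.15, adjusted p = 0.44 in edgeR) and -0.06 in TPM.

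Cebpb (Entrez 12608, chromosome 2, 167688915-167690432, plus strand), the C/EBP factor of the acute phase response, was 128, 137 and 130 CPM in Control, 104, 74.6 and 119 CPM in NASH and 79.6, 114 and 224 CPM in NASH+Exercise. The NASH mice lay below the Control mice, but the spread was wide and the difference did not pass (-0.40, SE 0.33, adjusted p = 0.373 in edgeR), and it was 0.00 in TPM. The highest value by far was that of NASH+Exercise replicate 22. With that mouse the trained group stood 0.49 above NASH, and without it -0.03. In the GENCODE annotation exons of Tmem189 on the opposite strand cover 20.7% of the Cebpb exon bases, while the RefSeq spans share 0 bases. Tmem189 was 13.3 to 26.8 CPM over the 9 mice and fell in NASH (-0.65, adjusted p = 0.012 in edgeR). If the counts used the GENCODE exons, reads from the shared bases cannot be told apart, and this was not tested. The activating and inhibitory proteins made from Cebpb mRNA are not separated by these counts.

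The C/EBP targets were taken as 2 lists. Of 16 acute phase genes 10 rose, 6 did not pass and none fell in NASH, with a median of 1.31, and 14 rose in NASH+Exercise against Control, with a median of 1.68. Lcn2, an iron-trapping secreted protein, went from 4.53 CPM ± 1.67 in Control to 426 CPM ± 159 in NASH and 348 CPM ± 182 in NASH+Exercise (6.55 and 6.26, adjusted p = 1.66e-05 and 3.33e-05 in edgeR). Saa1 (4.66) and Saa2 (5.38), serum amyloid A genes whose near-identical sequences can share reads, rose in NASH as well. Of the 16, only Orm3, an orosomucoid, differed between trained and sedentary mice, at 96.4 CPM ± 30.4 against 32.2 CPM ± 4.82 (1.58, adjusted p = 0.0405 in edgeR), a call that was lost under library size alone (1.35, adjusted p = 0.0851 in edgeR) and when any mouse but Control replicate 29 or NASH+Exercise replicate 8 was left out (1.40 to 1.69). Under library size alone all 16 rose in NASH, a scaling under which 4489 of all genes tested rose and 633 fell. Cebpb itself passed in neither comparison with Control.

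Of 14 metabolic C/EBP targets 6 fell, 1 rose and 7 did not pass in NASH, with a median of -0.76. G6pc, the last enzyme of gluconeogenesis, fell from 780 CPM ± 234 to 195 CPM ± 119 (-2.00, adjusted p = 0.00791 in edgeR) and was 149 CPM ± 36.4 in NASH+Exercise. Ucp2, a mitochondrial carrier that macrophages also express, rose (2.28, adjusted p = 4.04e-06 in edgeR). Alb was 94500 CPM ± 7090 in Control and 65800 CPM ± 13200 in NASH, without overlap, and did not pass (-0.52, adjusted p = 0.0889 in edgeR). With library size alone 3 of the 14 fell.

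The forkhead factors did not pass in any comparison. Foxa1 (Entrez 15375, chromosome 12, 57540628-57548029, minus strand) was 30.3, 28.1 and 21.5 CPM in Control, 32.0, 21.1 and 16.9 CPM in NASH and 29.3, 33.0 and 22.2 CPM in NASH+Exercise. Foxa2 (Entrez 15376, chromosome 2, 148042877-148046969, minus strand) was 41.3, 35.4 and 28.6 CPM in Control, 35.7, 27.7 and 25.0 CPM in NASH and 38.3, 39.1 and 29.9 CPM in NASH+Exercise. Both overlapped between all groups, with differences of -0.19 and -0.25 in NASH against Control under TMM that turned to 0.17 and 0.10 under library size alone. Both were low in the same mice, Control replicate 29, NASH replicate 20 and NASH+Exercise replicate 22, which were the lowest of their group for each gene. The ratio of Foxa1 to Foxa2 in TPM, which does not depend on the scaling between libraries, stayed between 0.443 and 0.586 in the 9 mice.

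Foxa3 (Entrez 15377, chromosome 7, 19013283-19023539, minus strand), the forkhead factor that persists most strongly in adult liver, was 35.2, 39.6 and 37.0 CPM in Control, 25.8, 33.5 and 47.0 CPM in NASH and 48.3, 53.3 and 75.0 CPM in NASH+Exercise. In CPM every trained mouse was above every mouse of both other groups, by a narrow margin over NASH replicate 20, and in TPM the trained and NASH mice overlapped (41.8 to 53.6 and 24.7 to 43.6 TPM). The difference from NASH was 0.73 (SE 0.22, adjusted p = 0.184 in edgeR) and that from Control 0.66 (SE 0.22, adjusted p = 0.0522 in edgeR), and neither passed. DESeq2 on 2 groups called both (adjusted p = 0.0388 and 0.0199), and over all 17 alternatives the difference from Control lay between 0.44 and 0.79, with a call in 9 of them. Without NASH+Exercise replicate 22, the highest mouse, the differences were 0.52 and 0.44.

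The bases before the listed Foxa1 start are shown because this is the only window of the 9 genes with the forkhead motif TGTTTAC, which is found in 3.65% of all promoter windows. It lies on the opposite strand, and the capitals give its reverse complement.
Foxa1, GRCm38.p6 chr12:57546122-57546361, minus strand: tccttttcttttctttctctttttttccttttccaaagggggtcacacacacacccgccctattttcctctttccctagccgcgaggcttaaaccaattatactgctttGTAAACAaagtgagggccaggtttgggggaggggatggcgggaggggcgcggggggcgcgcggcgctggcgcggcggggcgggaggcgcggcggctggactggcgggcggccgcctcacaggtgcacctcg
Of 14 FOXA target genes 4 fell and none rose in NASH, and 5 fell and none rose in NASH+Exercise against Control. Cyp2c37 fell in both (-1.80 and -1.27, adjusted p = 0.00049 and 0.00509 in edgeR). Igfbp1, a fasting-induced secreted binding protein, fell in NASH+Exercise against Control, from 143 CPM ± 8.98 to 33.8 CPM ± 11.1 (-2.08, adjusted p = 0.0205 in edgeR), and in NASH it was 106 CPM ± 78.5 and did not pass. The former call was lost without Control replicate 4 or 29 or NASH+Exercise replicate 8 or 18 (-2.15 to -1.84). Library size alone left 2 falls in NASH and 4 in NASH+Exercise against Control, each with 1 gene that rose. Under that scaling 633 of all genes tested fell and 4489 rose in NASH. In NASH+Exercise against Control 812 of all genes fell and 2499 rose under it. The gene lists used here share genes, so their counts are not separate results. Ttr is on the HNF4A and FOXA lists, and Pck1 and Alb are on the C/EBP and FOXA lists. Cyp2c29 is on the HNF4A list and the CAR and PXR list, and Nr0b2 is an NR5A2 target and a partner factor.

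Nr5a2 (LRH-1, Entrez 26424, chromosome 1, 136842562-136960448, minus strand) was 51.3, 39.8 and 74.2 CPM in Control, 48.0, 51.8 and 51.7 CPM in NASH and 51.2, 42.3 and 38.8 CPM in NASH+Exercise. The groups overlapped, and Control replicate 29 was the highest of all mice. No comparison passed, with -0.13 (SE 0.20) in NASH against Control, 0.11 without Control replicate 29 and 0.20 under library size alone. Intervals of 2 SE ran from -0.53 to 0.28 in NASH against Control and from -0.60 to 0.21 in NASH+Exercise against NASH, so changes of that size cannot be told from none at this number of mice.

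Among 13 tested NR5A2 targets 4 rose and 3 fell in NASH, with a median of -0.20, while 21.2% of all genes rose and 14.4% fell. Cyp8b1, the 12-hydroxylase of bile acid synthesis, was 746, 1540 and 651 CPM in Control, 1.54, 5.24 and 5.44 CPM in NASH and 2.84, 8.83 and 7.41 CPM in NASH+Exercise. It fell in NASH (-7.90, adjusted p = 3.52e-05 in edgeR) and in NASH+Exercise against Control (-7.27, adjusted p = 8.48e-05 in edgeR). Abcg5, which exports sterols into bile, rose from 72.6 CPM ± 5.62 to 314 CPM ± 41.4 in NASH (2.12, adjusted p = 1.43e-05 in edgeR). Nr0b2 (SHP), a corepressor of NR5A2 and HNF4A that bile acids induce, rose in NASH (0.56, adjusted p = 0.0454 in edgeR), with overlapping groups and a call that was lost when any mouse but NASH replicate 20 was left out (0.38 to 0.63), and was 44.6 CPM ± 4.98 in NASH+Exercise against 45.8 CPM ± 7.96 in Control. The Nr0b2 call in NASH was also lost with all mice under RLE, no filter or edgeR on 2 groups (adjusted p = 0.0613, 0.0619 and 0.0671 in edgeR). DESeq2 did not call Nr0b2 there either (adjusted p = 0.0792 on 2 groups and 0.0572 on all 9 mice). The difference of Nr0b2 in NASH+Exercise against NASH did not pass (-0.59, adjusted p = 0.209 in edgeR). Cyp7a1, the rate-limiting enzyme of bile acid synthesis, did not pass, at 17.2 CPM ± 15.5, 8.51 CPM ± 7.63 and 26.9 CPM ± 14.3 in Control, NASH and NASH+Exercise.

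**Figure D4:**
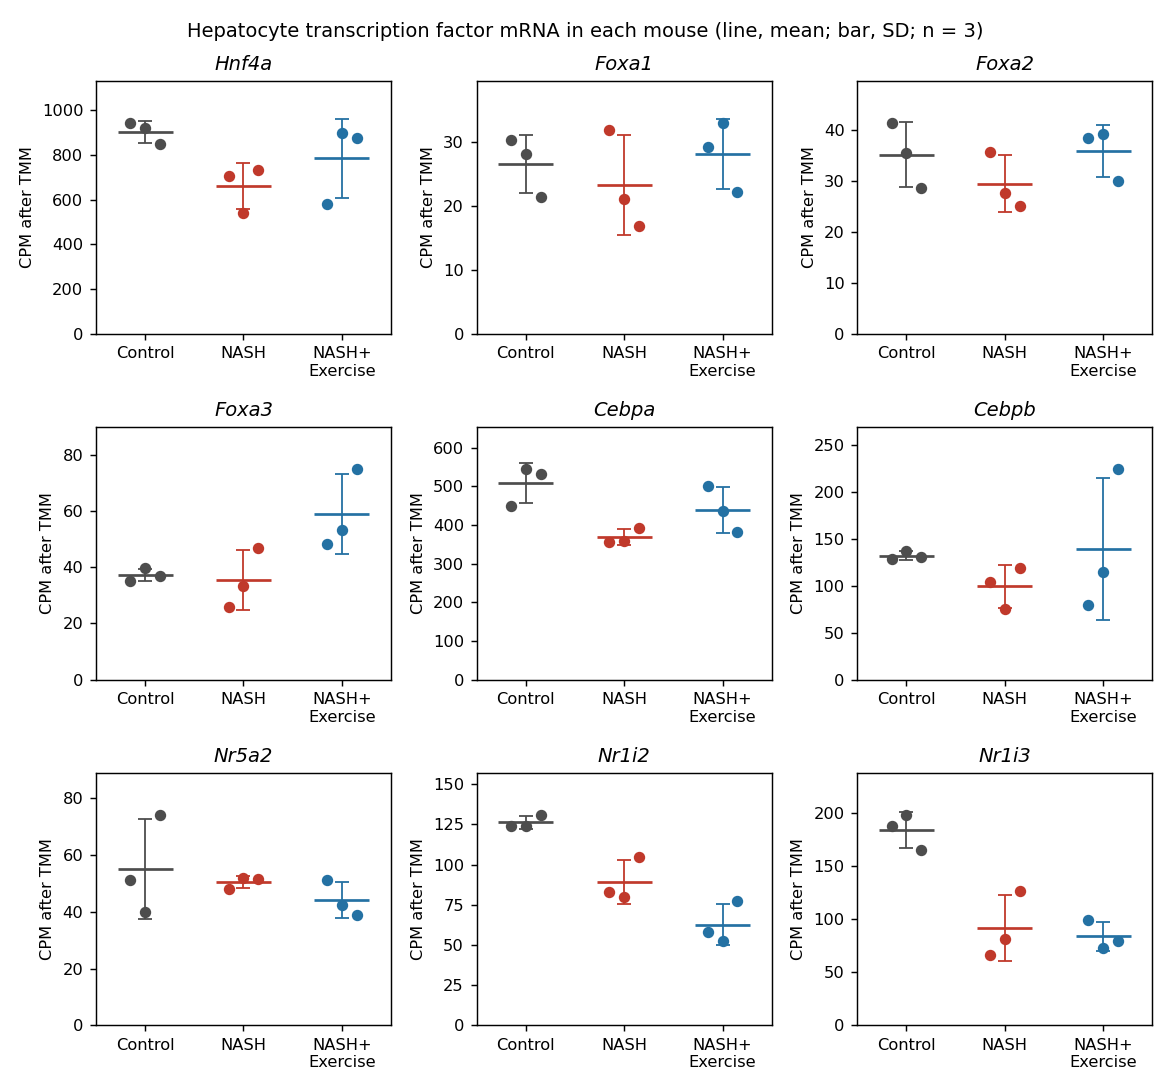
CPM after TMM of each factor in each mouse, on linear axes from 0, with points for mice (n = 3 per group), lines for means and bars for SD. Nr1i3 and Nr1i2 show no overlap between Control and either group on the Ath diet, Foxa3 is highest in the 3 trained mice at 48.3 to 75.0 CPM, and a single trained mouse at 224 CPM sets the Cebpb mean of its group.

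The comparison of NASH+Exercise with NASH asks whether training moved the network back. No factor rose and none fell in edgeR, where 0.11% of all genes rose and 0.0514% fell, while DESeq2 on 2 groups called 1 factor, Foxa3, and limma on log2(TPM + 1) called 1, Nr1i2 (-0.80, adjusted p = 0.0427). These called far more genes in all, 232 that rose and 289 that fell in DESeq2 and 32 and 273 in limma, against 15 and 7 in edgeR. Foxa3 was the only factor with all trained mice above all NASH mice, which was so for 9.16% of all genes, and Nr1i2 the only one with all below, which was so for 14.9%. At an unadjusted p under 0.05 edgeR gave these 2 factors, against 15.3% of all genes. The median of the 9 factors was 0.25 and that of all genes -0.03, with 6 estimates above 0 under TMM and 3 in TPM. Nr1i3 differed by -0.12 (SE 0.22, adjusted p = 0.844 in edgeR), with an interval of 2 SE from -0.55 to 0.31, and by 0.18 without NASH replicate 20, the NASH mouse with the highest Nr1i3.

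Trained mice and Control mice were also set side by side, with the same Control mice as before. In NASH+Exercise against Control 2 of the 9 factors fell, Nr1i2 and Nr1i3, both DEGs, and none rose, while 9.58% of all genes fell, 15.6% rose and 3.07% were DEGs with a lower level. In 2 factors all trained mice were below all Control mice (17.0% of all genes) and in 1, Foxa3, all were above (21.5%). At an unadjusted p under 0.05 there were 3 factors, against 36.3% of all genes. Cebpa and Hnf4a both stood at -0.21 and did not pass, and Cebpb (0.08), Foxa1 (0.08) and Foxa2 (0.03) were near 0, the last 3 with estimates of the other sign when single mice were left out.

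**Figure D5:**
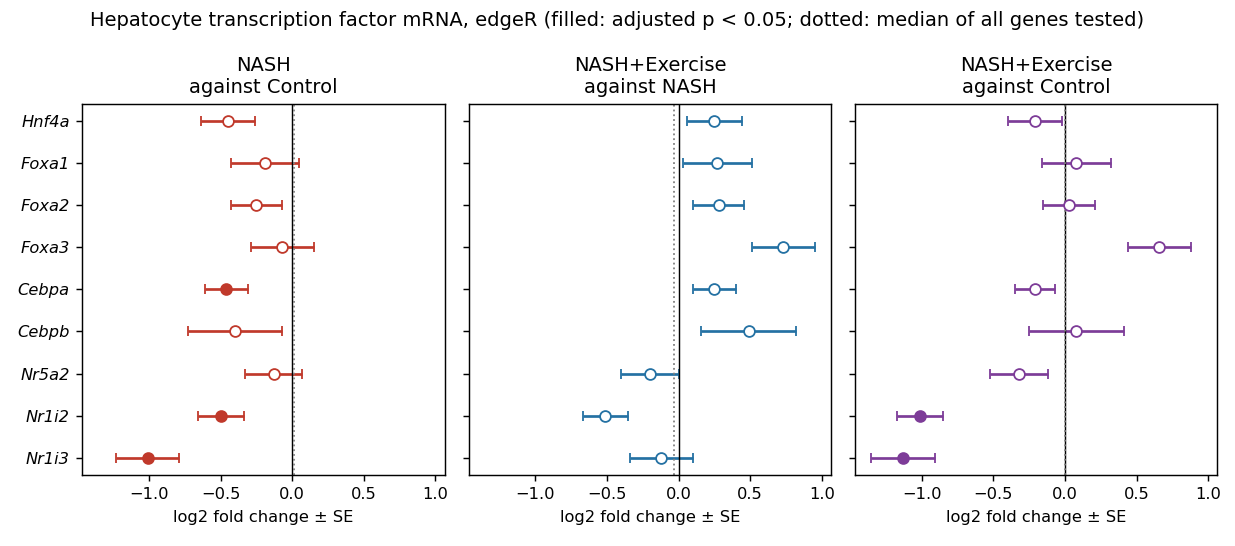
Log2 fold change ± SE of each factor (edgeR, all 9 mice) in the 3 comparisons, which share groups of mice, with filled points for an adjusted p under 0.05 and a dotted line at the median of all genes tested. Nr1i3, Nr1i2 and Cebpa are filled in NASH against Control, no factor in NASH+Exercise against NASH, and Nr1i3 and Nr1i2 in NASH+Exercise against Control, while Foxa1, Foxa2, Foxa3 and Nr5a2 change sign in the first panel under library size alone.

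Ratios of related factors within a library are free of the scaling between libraries. The log2 ratio of Nr1i3 to Nr1i2 was 1.36, 1.45 and 1.15 in Control, 0.49, 0.82 and 1.05 in NASH and 1.56, 1.25 and 0.80 in NASH+Exercise. The NASH mice lay below the Control mice (difference -0.53, p = 0.1 in an exact two-sided permutation test, which cannot go lower with groups of 3, and 0.9 after adjustment over 12 tests). The ratio of Cebpb to Cebpa in TPM was 0.429 to 0.50 in Control, 0.366 to 0.533 in NASH and 0.279, 0.461 and 1.03 in NASH+Exercise, so Cebpb reached the level of Cebpa in 1 mouse only, NASH+Exercise replicate 22. The same mouse had the highest ratio of Foxa3 to Foxa2, 2.6, against 0.747 to 1.95 in NASH and 0.882 to 1.34 in Control. The other 11 tests had overlapping groups.

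Of 28 partner transcription factors of hepatocytes, 8 fell and 1 rose in NASH, and 7 fell and 1 rose in NASH+Exercise against Control. Atf5 fell in both (-1.04 and -1.37, adjusted p = 0.00422 and 0.00128 in edgeR), as did Nr1h4 (FXR), the bile acid receptor (-0.85 in each, adjusted p = 0.0101 and 0.0141 in edgeR), though Nr1h4 lost its call in NASH under library size alone (-0.50, adjusted p = 0.0986 in edgeR) and in NASH+Exercise without Control replicate 3 (-0.73) or NASH+Exercise replicate 18 (-0.79). Dbp, a clock-driven factor, was 3.3 CPM ± 3.21 in Control, 16.0 CPM ± 11.4 in NASH and 47.5 CPM ± 41.3 in NASH+Exercise, and rose in the last against Control (3.83, adjusted p = 0.0479 in edgeR) with overlapping groups, a call that was lost when any mouse but NASH+Exercise replicate 18 or NASH replicate 5 was left out (3.17 to 5.01). The Dbp call was also lost with all mice under RLE, no filter or edgeR on 2 groups (adjusted p = 0.0531, 0.135 and 0.0563 in edgeR). In TPM it was lost with both pseudocounts (adjusted p = 0.139 and 0.132 in limma). With library size alone 4 of the partners fell and 2 rose in NASH. Of 9 tested fetal liver and progenitor genes 4 rose in NASH (Sox4, Spp1, Cd24a and Epcam) and 1 fell (Igf2), with Sox4 and Cd24a named after their values were seen. Spp1 and Epcam are also on the cholangiocyte list, of which 6 of 9 rose. The count of 4 was 2 without Control replicate 3 or 29 or NASH replicate 19, a mouse with 341 CPM of Spp1 against 83.2 and 87.3 CPM in the other NASH mice, and the fall of Igf2 was lost under library size alone, in DESeq2 and without any mouse but Control replicate 4 or NASH replicate 5. Afp, the classical fetal hepatocyte gene, did not pass, at 0.882 CPM ± 0.122 against 0.424 CPM ± 0.0884 in Control.

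The genes most like each factor over the 9 mice were found by the mean absolute difference of centred log2 CPM. Foxa2 was the tested gene nearest to Foxa1, at 0.085, and Foxa1 the second nearest to Foxa2 after Cops7b (0.084). For Nr1i3 the nearest were Bnip3 (0.109) and the overlapping Tomm40l (0.118), for Nr1i2 Slc35g1 (0.106) and Klb (0.112), and for Hnf4a Zfp410 (0.051) and Saysd1 (0.066). Foxa3 was nearest to Dnaja4 (0.127) and Cyp2d40 (0.159), Cebpa to Fdxacb1 (0.076) and Otulin (0.083), Cebpb to Grin3b (0.078) and Slc25a51 (0.125), and Nr5a2 to Stx17 (0.058) and Capza2 (0.074). These are descriptions of 9 libraries that share their scaling and their groups.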

How the data were processed

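Liver libraries of 9 mice were used, 3 per group. The authors deposited, for each Entrez gene, estimated counts that were not normalized, with FPKM and TPM values. The labels' processing notes name HISAT2 2.1.0, Bowtie2 2.2.5 and RSEM 1.2.8 with GRCm38.p6, and do not state strand. The deposited estimated counts were rounded and tested, the deposited TPM served for levels between genes, for ratios and for 2 alternatives, and the deposited FPKM were not used. The table that holds all mice was compared with the single files, and 0 of 428304 values differed.

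Tests used edgeR 4.0.16 (filterByExpr with at least 10 counts and a total of 15, TMM, robust quasi-likelihood fit of all 9 mice by group, Benjamini-Hochberg adjustment over 13619 genes, adjusted p under 0.05). Alternatives were RLE, library size alone, no filter, DESeq2 1.42.0, edgeR on 2 groups, limma 3.58.1 on log2(TPM + 1) or log2(TPM + 0.1), and each mouse left out. The scripts were tested on simulated counts. No source says more of the replicates than separate mice, so p-values measure the spread between mice. The factors and the gene lists were chosen with earlier results of these data known, and the lists were written from general knowledge. Named genes are the 9 factors, the first 3 genes of each list, the gene of each list with the largest change past the threshold per comparison and direction, the first 3 macrophage and cholangiocyte markers, and the 2 genes nearest to each factor. Tomm40l and Tmem189, which overlap factors, were named after their values were seen. Sult2a1, H19, Tf, Trac and Ighm of the lists were not analysed here. Some results of withheld items are not reported here. Positions, promoter windows and starts are those of RefSeq on GRCm38.p6, and exons those of GENCODE. RefSeq symbols matched 17728 of 17846 identifiers.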

Additional observations from a re-analysis of the deposited data

How the results depend on the processing

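Of the 459 fold changes of the 9 factors under the 17 alternatives, 398 kept their direction and side of the threshold. In NASH against Control the count of factors called was 3, and it was 1 under library size alone, 0 in TPM (limma, both pseudocounts), 1 as DEGs, 4 in both DESeq2 fits, which added Hnf4a, and 1 to 4 with single mice left out (1 without Control replicate 29 or NASH replicate 5 or 19, 4 without NASH+Exercise replicate 8). Over all genes tested 2886 rose and 1960 fell in the main fit, and 4489 and 633 under library size alone. In limma 5045 rose and 524 fell on log2(TPM + 1), and 5006 and 516 on log2(TPM + 0.1). DESeq2 gave 2594 and 1907 on 2 groups and 2835 and 2291 on all 9 mice. With single mice left out 2252 to 2919 rose and 1265 to 2145 fell. In NASH+Exercise against NASH the count of factors called was 0, and 1 by DESeq2 on 2 groups and by limma on log2(TPM + 1). In NASH against Control, Cebpa was -0.11 under library size alone, -0.02 in TPM with both pseudocounts and -0.55 to -0.43 with single mice left out. Nr1i2 was -0.16, -0.08 with both and -0.64 to -0.46, and Nr1i3 was -0.61 in TPM with both.

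Directions turned in NASH against Control under library size alone for Foxa1 (0.17), Foxa2 (0.10), Foxa3 (0.28) and Nr5a2 (0.20). They turned in log2(TPM + 1) for Foxa1 (0.19), Foxa2 (0.17), Foxa3 (0.31) and Nr5a2 (0.34), with Cebpb at 0.00, and in log2(TPM + 0.1) the values were 0.21, 0.18, 0.32, 0.36 and 0.00. In NASH+Exercise against NASH, TPM with both pseudocounts gave Hnf4a -0.07, Foxa2 -0.02 and Cebpa -0.06. With single mice left out, NASH against Control ran from -0.33 to 0.11 for both Foxa3 and Nr5a2, NASH+Exercise against NASH from -0.03 to 0.77 for Cebpb and from -0.30 to 0.18 for Nr1i3, and NASH+Exercise against Control from -0.07 to 0.22 for Foxa1, from -0.12 to 0.16 for Foxa2 and from -0.44 to 0.36 for Cebpb. The log2 ratio of Cebpb to Cebpa ran from -0.07 to 0.20 in NASH against Control, from -0.37 to 0.57 in NASH+Exercise against NASH and from -0.35 to 0.60 in NASH+Exercise against Control. That of Foxa1 to Foxa2 ran from -0.08 to 0.12 in the first and from -0.07 to 0.14 in the second, that of Foxa3 to Foxa2 from -0.20 to 0.49 in the first, and that of Nr1i3 to Nr1i2 from -0.30 to 0.08 in NASH+Exercise against Control. Beyond the values that follow from the scaling or from fewer mice, the cause was not tested.

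No paired analysis was possible because the groups share no replicate numbers. There were 3 mice per group and 6 residual degrees of freedom. The interval of 2 SE for Cebpb in NASH against Control, from -1.06 to 0.25, included no change. That of Hnf4a in NASH against Control ran from -0.84 to -0.07. For Foxa3 it ran from 0.29 to 1.17 in NASH+Exercise against NASH and from 0.22 to 1.1 against Control. These Hnf4a and Foxa3 differences did not pass after adjustment over all genes tested. The counts are of mRNA per gene, so transcripts and proteins of 1 gene are not separated.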
